A study of Mus musculus with 24 samples.

Results

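Enriched housing was compared with standard housing in the hippocampus of aged mice with both genotypes pooled. The comparison held 12 libraries of enriched mice (6 WTEE and 6 KDEE) and 9 libraries of standard-housed mice (4 WTSH, mice 2, 5, 19 and 23, and 5 KDSH, mice 1, 3, 8, 18 and 24), which is 21 of the 24 libraries of the series. Genotype entered the model as a block and no interaction was fitted, so each fold change is the effect of housing averaged over WT and MSK1 KD mice. All mice were experimentally naive males of 21 to 23 months on a C57-Bl/6J background, and each library was made from 1 mouse. WT mice carried the normal MSK1 gene (Rps6ka5), and MSK1 KD mice were homozygous for a point mutation that inactivates the N-terminal kinase domain of the protein in every cell and throughout life. The genotypes were kept as separate lines. Standard-housed (SH) mice lived in groups of 3 or 4 with bedding and a cardboard tube. Enriched (EE) mice were moved at 18 months into large rat cages of 8 to 10 males with a running wheel, a tube, a ladder and toys that were moved or replaced each week. Enrichment therefore joined exercise, novelty and a larger social group, and these parts cannot be told apart here. The cage of each mouse was not given in the labels, so cage and housing cannot be told apart either, and p values measure the spread between mice. The labels also give no sequencing lane and no order of preparation, so whether these ran with housing is not known. Mice numbered 1 to 8 were all SH and those numbered 9 to 17 all EE, while numbers 18 to 24 held both.

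Environmental enrichment is known to raise hippocampal plasticity and spatial memory in rodents. MSK1 is a nuclear kinase that is switched on by neuronal activity and by the neurotrophin BDNF through the ERK and p38 pathways, and it phosphorylates histone H3 and the transcription factor CREB, which binds the cyclic AMP response element of its target genes. Bulk hippocampal RNA also holds RNA of glia, of vessel cells with the blood in them and of cells at the ventricle, so the tables include genes of those cells. Fewer cells of a type and less RNA per cell cannot be told apart in such samples.

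The labelled tissue was checked against 9 markers of hippocampal neurons, which were all tested. Slc17a7, the vesicular glutamate transporter of excitatory neurons, ranged from 57000 to 77800 normalised read counts over the 21 libraries, and Prox1, a transcription factor of dentate granule cells, ranged from 2106 to 5291. Normalised read counts are counts scaled to the mean library size by TMM factors. Depth was 27410239 to 71907130 counts on genes per library, and 20187 of 49568 gene symbols passed the filter on low counts. A list of abundant structural RNA genes held genes of ribosomal and other noncoding RNAs and the protein-coding gene Lars2. The 3 libraries that the study left out had 5.62% to 23.2% of their counts on these genes, against 0.0355% to 2.59% in the libraries compared here. Among the latter, WTEE libraries had a median of 0.695% on these genes and WTSH libraries of 0.0868%, and the values of this share beside the results below were not tested as a cause. WTEE mouse 10 stood apart from all other libraries. The chi-square per degree of freedom between its counts and those of another library was 130 to 276. Over the 190 pairs that leave it out the median was 31.2 and the highest value 111. Values without it are given beside several results below, though not beside every one that it moves. Rps6ka5 itself had a mean of 1091 ± 139 normalised counts in EE (SD, n = 12) and of 1140 ± 66.9 in SH (SD, n = 9), with an edgeR adjusted p of 0.629. A point mutation leaves the transcript in place, so this level does not check the genotype.

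Only 1 of the 20187 tested genes passed the test of housing. Ighm, the constant region of the heavy chain of immunoglobulin M, rose in enriched mice, and no gene fell. Calls were made with edgeR's quasi-likelihood test and needed both an adjusted p (Benjamini-Hochberg) below 0.05 and a log2 fold change beyond 0.38 in either direction, so 0.00495% of the 20187 tested genes were called higher in EE and 0% lower. Ighm lies on chr12:113418558-113422730 (GRCm38, minus strand) and shares no exon with another gene of the GENCODE M21 annotation. Its normalised count had a lowest value of 787, a median of 889 and a highest value of 1125 in the 9 SH mice. In the 12 EE mice these were 1178, 1340 and 1843. The lowest EE mouse therefore stood above the highest SH mouse. The means were 1396 ± 225 in EE (SD, n = 12) and 931 ± 109 in SH (SD, n = 9), a log2 fold change of 0.57 with a standard error of 0.082 and an adjusted p of 0.0105. An exact permutation of housing within genotypes over 97020 assignments gave a two-sided p of 1.03e-05, the smallest that it can give. Ighm was picked by its p among the 20187 genes in these same mice, so this unadjusted p is a description and not separate evidence.

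Ighm was the only gene of all those tested whose EE and SH libraries did not overlap, so 0.00495% of genes did so with EE higher and 0% with EE lower. The effect was 0.68 on the log2 scale in WT mice and 0.48 in MSK1 KD mice. The difference between these effects had an unadjusted p of 0.239. The 6 WTEE mice spread from 1186 to 1843 and the 6 KDEE mice from 1178 to 1358, so the highest EE values were those of WT mice. Leaving out any 1 of the 21 libraries kept the call, with adjusted p values of 0.00194 to 0.0458. Without WTEE mouse 10 the log2 fold change was 0.54. Ighm is among 17 genes that the study names from these samples, so its direction here is not independent evidence. With the summed level of the 4 hemoglobin genes as a covariate the log2 fold change was 0.57 and the adjusted p 0.151, so the call was lost.

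Of the 22 genes in a list of immunoglobulin and B cell genes, 14 were tested, edgeR called 1 and 3 more were higher at an unadjusted p under 0.05. The called gene was Ighm itself. Over all genes tested, 9.96% were higher and 9.57% lower at that p. DESeq2 also called Igkc. The other light and heavy chains were scarce. Igkc, the constant region of the kappa light chain, had 46.9 ± 28.3 normalised counts in EE and 21.3 ± 9.53 in SH, with a log2 fold change of 1.17 and an adjusted p of 0.167. Its values ran from 13.8 to 89.7 in EE and from 10.6 to 41.8 in SH, so the groups overlapped, and 7 of 12 EE mice stood above every SH mouse. Ighg2b had a log2 fold change of 2.46 and Igha of 1.51, with medians of 6.79 and 7.35 normalised counts in EE and of 1.16 and 2.35 in SH. Ms4a1 (CD20), a defining marker of B cells, had 0 to 7 raw counts per library and was not tested. Ighd, which is made with Ighm in naive B cells, had a log2 fold change of 0.10 and an adjusted p of 0.783. The part of B cells in the rise of Ighm was not tested. The median log2 fold change of the 14 genes was 0.39 against 0.0068 over all genes tested.

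Below the threshold many genes differed by a little. An unadjusted p under 0.05 was reached by 3942 genes, 2011 of them higher in EE (9.96%) and 1931 lower (9.57%). At an adjusted p under 0.1 there were 4 genes, and at an adjusted p under 0.2 there were 1279, of which 577 were higher in EE and 702 lower. The median absolute log2 fold change of the 3942 genes was 0.214. DESeq2, the tool the study used, called 71 genes with the same additive model, 39 higher in EE and 32 lower, and Ighm led them too. With edgeR on all 24 libraries 21 genes were called, and without WTEE mouse 21 there were also 21 calls. These counts differ from the single call by more than 1.5 times.

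The 20 genes with the smallest p values were taken as leading genes. Besides Ighm they hold 3 genes that were higher in EE and 16 that were lower, none of which passed the adjusted threshold in edgeR. Their values are therefore a description of the order by p. Cd14, a co-receptor for bacterial lipopolysaccharide on myeloid cells, had 98.7, 138 and 156 normalised counts in SH as its lowest, median and highest value. In EE these were 155, 179 and 275, and 10 of 12 EE mice stood above every SH mouse. The log2 fold change was 0.50 with a standard error of 0.094 and an adjusted p of 0.103. Nt5e, the enzyme CD73 that makes adenosine outside cells, had 130, 164 and 173 in SH and 166, 200 and 278 in EE. Its log2 fold change was 0.39 with an adjusted p of 0.152, and 11 of 12 EE mice stood above every SH mouse.

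**Figure D1:**
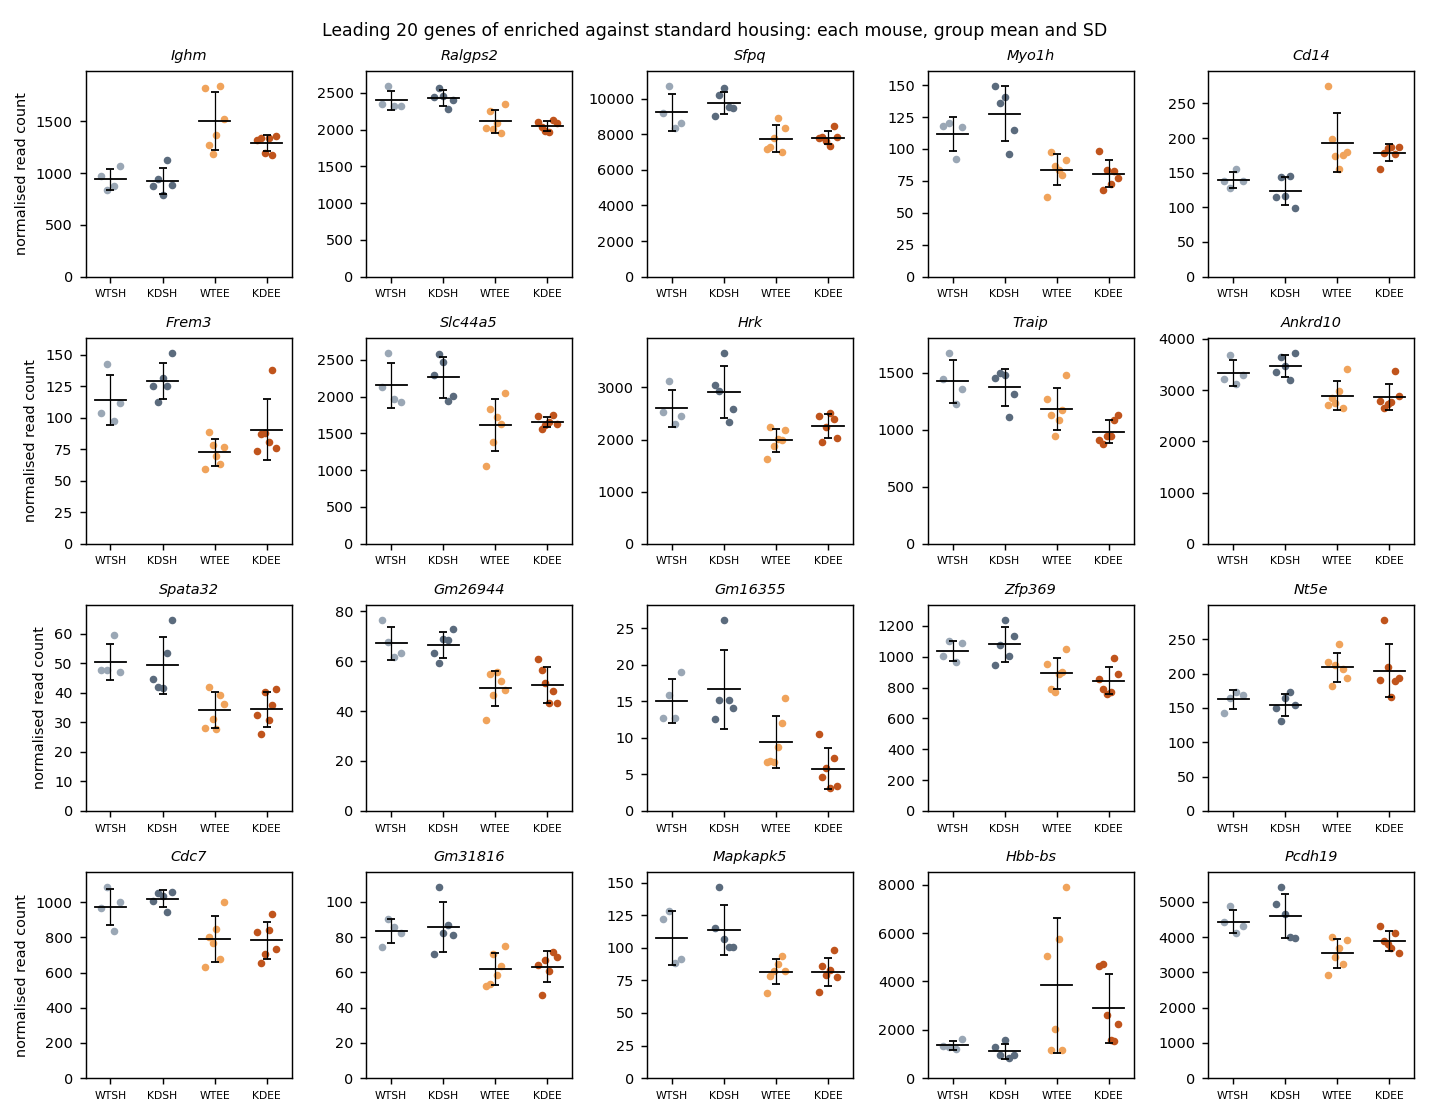
Normalised read counts (vertical axes from 0) of the leading 20 genes in each of the 21 mice, by group, with a line at the group mean and bars of 1 SD. The enriched groups (WTEE and KDEE) of Ighm lie wholly above the standard-housed groups, from 1178 to 1843 against 787 to 1125, while every other gene shows some overlap.

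Genes that were lower in EE came from several classes. Ralgps2, an exchange factor for Ral GTPases, had the second smallest p. Its values were 2279, 2404 and 2596 in SH and 1960, 2058 and 2349 in EE, with a log2 fold change of -0.22 (SE 0.037) and an adjusted p of 0.0635. A total of 11 of 12 EE mice stood below every SH mouse. Sfpq, an RNA-binding protein of the paraspeckle that is needed for the transcription of long neuronal genes, had means of 7779 ± 572 in EE and 9530 ± 836 in SH. Its log2 fold change was -0.29 with an adjusted p of 0.0635, and it shares exon sequence with Gm12940. Myo1h, an unconventional myosin, had means of 82.1 ± 10.9 and 121 ± 19.2 and an adjusted p of 0.0721. It shares exon sequence with Kctd10, so its counts without regard to strand are uncertain. Frem3, an extracellular matrix protein, had means of 81.6 ± 20.1 and 123 ± 17.8 and a log2 fold change of -0.58, with an adjusted p of 0.103.

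Slc44a5, a choline transporter-like protein, had a log2 fold change of -0.43, and the 12 EE mice ran from 1061 to 2051 against 1920 to 2592 in SH. Hrk, a BH3-only protein that promotes neuronal apoptosis, ran from 1629 to 2511 in EE and from 2305 to 3659 in SH, a log2 fold change of -0.37. Mapkapk5, a kinase downstream of p38 and ERK3, had means of 81.7 ± 9.76 and 111 ± 18.7 and a log2 fold change of -0.44, and its exons overlap Adam1a and Gm42878. Pcdh19, a protocadherin of the X chromosome involved in neuronal adhesion, had means of 3715 ± 382 and 4525 ± 487. Cdc7, the kinase that fires replication origins, and Traip, a ubiquitin ligase of the replication fork, had log2 fold changes of -0.34 and -0.38. Each of these 6 genes had an adjusted p of 0.152, and the EE and SH mice of each overlapped.

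The remaining 7 leading genes were Ankrd10, Spata32, Zfp369, Gm26944, Gm31816, Gm16355 and Hbb-bs. The first 6 had log2 fold changes between -0.25 for Ankrd10 and -1.07 for Gm16355. Gm16355 is a processed pseudogene with medians of 6.81 normalised counts in EE and 15.1 in SH, so it rests on few reads. Gm26944 is antisense to Pcf11, and without strand the reads of that pair cannot be told apart.

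CREB binding letters were sought in the promoters of the leading genes, since CREB is a target of MSK1. RefSeq promoter windows of GRCm38.p6, from 250 bases before to 50 bases after each start, were found for 16 of the 20 genes, and none was found for Ighm. The full element TGACGTCA was in 0 of the 16 on either strand and in 1.79% of 32851 windows of all genes. The core letters TGACG, which the full element contains, were on either strand in some window of 5 of the 16 genes and of 23% of all genes. By window, they were in 6 of the 24 windows of leading genes and in 20.8% of all windows. The stretches around the core letters are shown for the 4 protein-coding genes that hold them, read 5′ to 3′ along each gene, with the core letters in capitals. All of these 4 genes were lower in EE, as were 14 of the 16 leading genes with a window.
Hrk, chr5:118169706-118169734, plus strand: taataatagcgcCGTCAgcacaacaaacg
Mapkapk5, chr5:121545962-121545990, minus strand: cgcgccgtcttaCGTCAttcacccagcgc
Mapkapk5, chr5:121545943-121545971, minus strand: cacccagcgccaCGTCAgtggaaggcccg
Ankrd10, chr8:11635823-11635851, minus strand: ccccaccacgggCGTCAgcagcggtcgga
Spata32, chr11:103218484-103218512, minus strand: ccctggcctgaaCGTCAcagaagccgcag
In each stretch the core letters stand on the strand opposite to the gene, from 46 bases upstream of the RefSeq start in Hrk to 86 bases upstream in Mapkapk5. A match of letters is a description and not a binding site.

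The effect of housing was next taken within each genotype. In WT mice (WTEE against WTSH) 0% of genes were called, 1322 genes (6.55%) had an unadjusted p under 0.05, and the smallest adjusted p was 0.241. In MSK1 KD mice (KDEE against KDSH) 0% were called, 2345 genes (11.6%) had an unadjusted p under 0.05, and the smallest adjusted p was 0.288. The difference between the 2 effects called 0% of genes, and 659 genes (3.26%) had an unadjusted p under 0.05, with a smallest adjusted p of 0.419. DESeq2 called 2 genes in WT mice, 12 in MSK1 KD mice and 20 for the difference. All 20 had a higher log2 fold change in WT than in MSK1 KD. That sign alone does not tell a rise in WT from a fall in MSK1 KD. The direction of the effect was the same in both genotypes for 70.6% of all tested genes. The 2 comparisons share no mouse. Of the genes with an unadjusted p under 0.05, 321 were in both comparisons, which is 24.3% of the WT genes and 13.7% of the MSK1 KD genes. Of these, 235 had the same direction, 98 higher and 137 lower in EE.

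**Figure D2:**
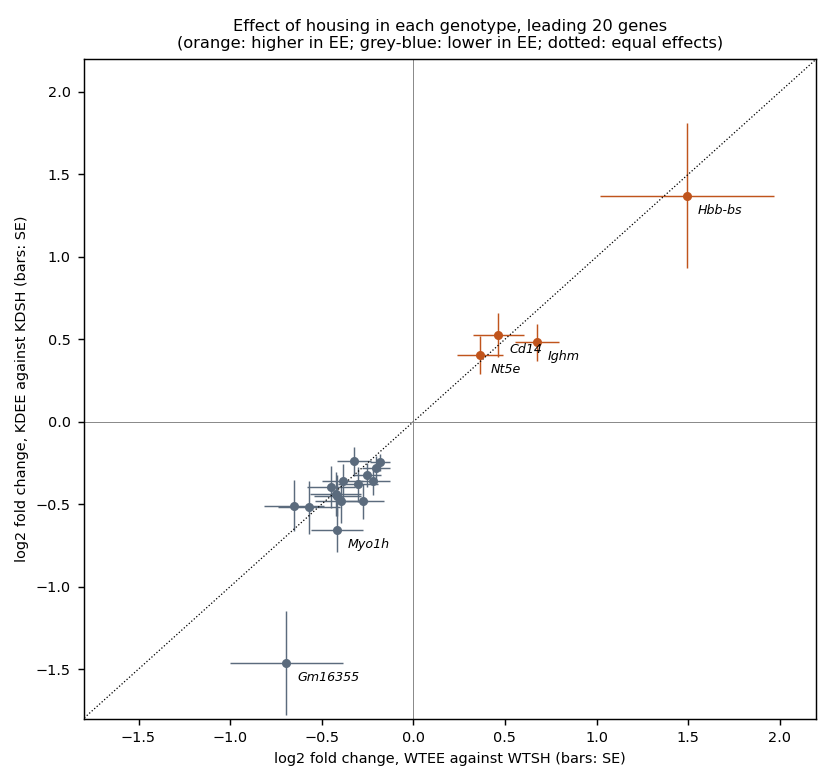
Log2 fold change of WTEE against WTSH (horizontal) and of KDEE against KDSH (vertical) for the leading 20 genes, with bars of 1 standard error and a dotted line of equal effects. All 20 points lie on the same side of 0 in both genotypes, from -1.46 for Gm16355 in MSK1 KD to 1.49 for Hbb-bs in WT, and were chosen by the pooled p.

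The leading 20 genes had the same direction in both genotypes, which their choice by the pooled effect favours. Gm16355 had the smallest p for a difference between genotypes among them, 0.0969, with log2 fold changes of -0.69 in WT and -1.46 in MSK1 KD. Tnfaip2, a gene induced by tumour necrosis factor, had log2 fold changes of 0.29 in WT and 0.58 in MSK1 KD and a pooled one of 0.44, with an adjusted p of 0.152. Its values were 241 to 348 in SH and 281 to 565 in EE. Batf3, the transcription factor of type 1 dendritic cells, had means of 64.2 ± 21.1 in EE and 42.8 ± 6.69 in SH. No gene, Batf3 included, passed edgeR's test of a difference between the genotypes (smallest adjusted p 0.419). The difference in means was larger in WT mice, where Batf3 had means of 80.3 ± 17.3 in WTEE and 43.0 ± 10.6 in WTSH. In MSK1 KD mice Batf3 had means of 48.1 ± 7.73 in KDEE and 42.6 ± 2.35 in KDSH. Its log2 fold change of 0.90 in WT and its pooled value of 0.52 did not pass the adjusted threshold in edgeR, and DESeq2 called the pooled effect with an adjusted p of 0.0377. Like Ighm, Myo1h, Traip and C4a, both are among the 17 genes that the study names from these samples, so their direction is not independent evidence. Of those 17, edgeR called 1, 4 more were higher and 6 lower at an unadjusted p under 0.05. Over all genes, 9.96% were higher and 9.57% lower at that p.

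Hbb-bs, a beta chain of hemoglobin and also a leading gene, was described together with the other adult hemoglobin genes. It ran from 821 to 1628 normalised counts in SH, with a median of 1269. In EE it ran from 1147 to 7900, with a median of 2431, and 8 of 12 EE mice stood above every SH mouse. The 12 values were spread widely and the log2 fold change was 1.43 (SE 0.315) with an adjusted p of 0.152. Hbb-bt, at 1.54, and Hba-a2, at 1.46, had the highest and lowest log2 fold changes of the other 3 genes, with the same adjusted p. DESeq2 called all 4 hemoglobin genes, with adjusted p values of 0.0115 to 0.0121, and Alas2 of the red blood cell list (0.0377). On all 24 libraries edgeR called the 4 hemoglobin genes as well, with adjusted p values of 0.0416 to 0.0468. Hba-a1 and Hba-a2 are near-identical copies, and counting of unique alignments could split their reads in an uncertain way. The summed level of the 4 genes, chosen after its values were seen, was 35.5 to 74.4 CPM (counts scaled to library size) in SH and 53.9 to 381 in EE. The difference of the log2 sum was 1.13 in WT and 1.30 in MSK1 KD. Of 8 red blood cell genes that were tested, these among them, 6 were higher at an unadjusted p under 0.05. Over all genes, 9.96% were higher at that p. The summed level of the whole list differed by 0.31 on the log2 scale, with an exact permutation p of 0.0126 and an adjusted p of 0.0758 over 12 measures of the libraries. Whether the hemoglobin RNA came from blood left in the tissue was not tested.

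**Figure D3:**
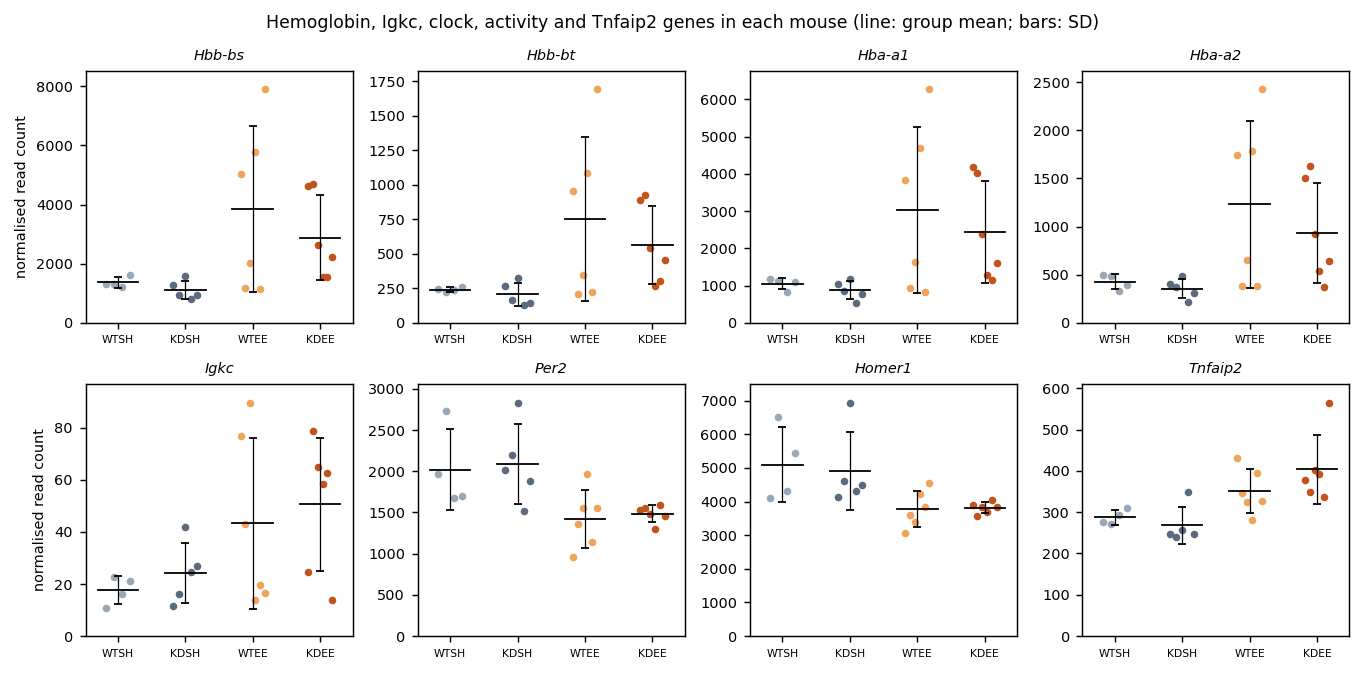
Normalised read counts (vertical axes from 0) of the 4 hemoglobin genes, Igkc, Per2, Homer1 and Tnfaip2 in each mouse by group, with a line at the group mean and bars of 1 SD. The hemoglobin genes stay close together in both standard-housed groups and fan out in both enriched groups, with Hbb-bs from 1147 to 7900 in EE against 821 to 1628 in SH.

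No gene of cytoplasmic ribosomes or of respiration was called by edgeR, and many had small positive fold changes. Of 85 tested genes of cytoplasmic ribosomal proteins, 68 were higher and 0 lower at an unadjusted p under 0.05, 0 were called, and their median log2 fold change was 0.23 against 0.0068 over all genes. The counts of the lists in this paragraph stand beside 9.96% higher and 9.57% lower over all genes. Rplp0, a protein of the ribosomal stalk, had means of 11638 ± 1933 in EE and 9877 ± 604 in SH, and Rps27l had the largest log2 fold change of the list, 0.45, and was the only member that DESeq2 called. Ribosomal protein genes have many processed pseudogenes that can share reads with them. Of 77 nuclear genes of oxidative phosphorylation, 48 were higher and 0 lower, with a median of 0.21. Cox6c, a subunit of cytochrome c oxidase, had means of 9630 ± 2472 and 7694 ± 509, and Ndufs4, a subunit of complex I, had a log2 fold change of 0.23. Of 12 genes of the mitochondrial genome, 7 were higher and 0 lower, with a median of 0.30. The mitochondrial share of counts was 3.51% to 4.68% in SH and 3.72% to 6.23% in EE. The difference was 0.23 on the log2 scale, with an exact permutation p of 0.00474 and an adjusted p of 0.0569 over 12 measures of the libraries. On all 24 libraries the difference was 0.13 with an adjusted p of 0.154. The medians of the ribosomal list were 0.25 in WT and 0.20 in MSK1 KD.

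The values of these lists moved with properties of the libraries. With the hemoglobin sum as a covariate 0 of 85 ribosomal genes had an unadjusted p under 0.05, with the summed choroid plexus level 2 and with the first principal component 2. The median was then 0.16, 0.14 and 0.13. Without WTSH mouse 23, 45 of them were higher. WTEE mouse 10 had the highest values of Rplp0 (17250) and Cox6c (17000) among EE mice, and without it the ribosomal median was 0.14 with 70 genes higher and the nuclear oxidative phosphorylation median 0.13 with 57 genes higher. Over all genes, 1704 had an unadjusted p under 0.05 with the hemoglobin sum as a covariate, against 3942 in the main fit. Without WTEE mouse 10, 2013 genes were higher and 2042 lower at that p. The counts over all genes of the other fits are not given here. The part of these properties in the result was not tested.

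Exon length also moved with the effect of housing. The genes that were higher in EE at an unadjusted p under 0.05 had a median exon length of 2511 bases and those that were lower of 6080 bases, against 3695 bases for all tested genes with a length. Genes were put in 5 equal bins of exon length, and from the shortest to the longest bin the median log2 fold change went from 0.091 to -0.072. In the longest bin 2.34% of genes were higher and 21.0% lower. The same order held within WT, from 0.13 to -0.095, and within MSK1 KD, from 0.060 to -0.059. Across 19459 genes Spearman's rho between length and log2 fold change was -0.27, as a description, since the genes share their libraries. Ribosomal genes had a median length of 1739 bases and glutamate receptor genes of 7184. After each library's trend on length was removed, 51 ribosomal, 37 nuclear oxidative phosphorylation and 7 mitochondrial genes were still higher, with medians of 0.16, 0.14 and 0.22. The count over all genes in that fit is not given here. Ighm remained called, with an adjusted p of 0.0251.

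**Figure D4:**
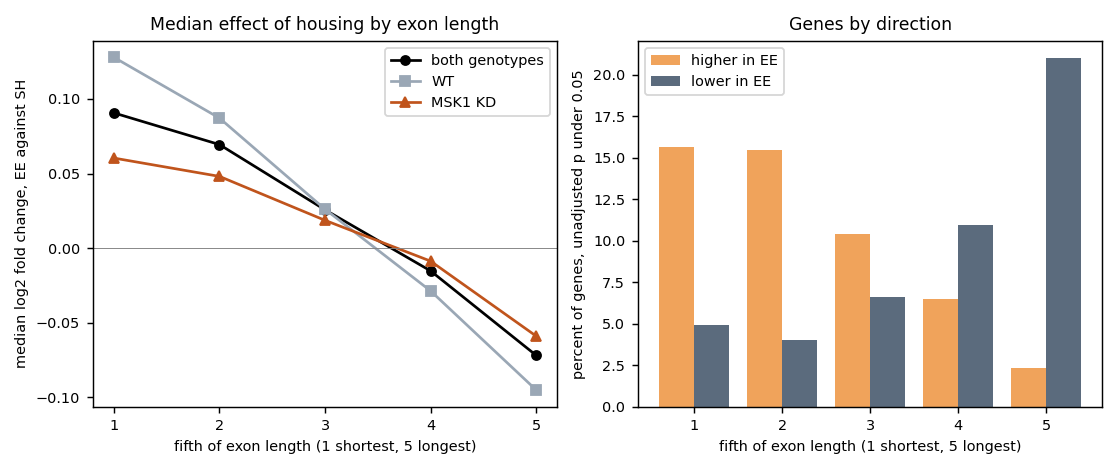
Left, median log2 fold change of EE against SH in 5 bins of exon length, from the shortest to the longest genes, in both genotypes together and in each. Right, percent of genes in each bin with an unadjusted p under 0.05, by direction, from 15.7% higher and 4.91% lower in the shortest bin to 2.34% and 21.0% in the longest.

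No gene of the myelin and glia lists was called by edgeR, while DESeq2 called Cd9, Vim and C4a. Of 16 genes of mature oligodendrocytes and myelin, 12 were higher and 0 lower at an unadjusted p under 0.05, with a median log2 fold change of 0.24 (0.18 in WT and 0.28 in MSK1 KD). Over all genes, 9.96% were higher and 9.57% lower at that p. Mbp, the main structural protein of compact myelin, had means of 178300 ± 16549 in EE and 148620 ± 23059 in SH. Mag, an adhesion protein of myelin, had means of 12624 ± 1029 and 10646 ± 1476. Gpr17, a receptor of differentiating oligodendrocyte precursors, went the other way, with means of 1416 ± 180 and 1762 ± 299. With the hemoglobin covariate 13 of the 16 myelin genes were higher, and with the trend on length removed 11. Over all genes, 1704 had an unadjusted p under 0.05 with the hemoglobin covariate, against 3942 in the main fit.

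Of 22 genes of disease-associated microglia, the state of microglia near plaques and dying cells, 16 were higher and 0 lower, with a median of 0.34. This and the next counts stand beside 9.96% higher and 9.57% lower over all genes. Cd9, a tetraspanin, had means of 2002 ± 372 in EE and 1493 ± 258 in SH and a log2 fold change of 0.42. Ctsd, a lysosomal protease, had means of 11970 ± 3606 and 9115 ± 940, and Trem2, the lipid receptor of this state, had means of 1306 ± 283 and 1059 ± 130. WTEE mouse 10 had the highest EE values of Ctsd (22120 against an EE median of 11070), Trem2 (2081) and C1qa (7170). Without it the log2 fold changes of Ctsd, Trem2 and C1qa were 0.28, 0.22 and 0.30, and 15 of the 22 genes were higher with a median of 0.27. Of 16 homeostatic microglia genes 3 were higher, among them Aif1 at 0.29, and without WTEE mouse 10 there was 1, beside 9.96% of all genes. Their median was 0.091, and the difference from the disease-associated list was not tested. Of 18 complement genes 6 were higher and 3 lower, and without WTEE mouse 10 there were 4 and 3. C1qa, C1qb and C1qc, which form the first component of the cascade, had log2 fold changes of 0.40, 0.34 and 0.34. C4a was lower, with means of 112 ± 22.5 and 157 ± 27.7, and shares sequence with its close copy C4b, so its count is uncertain. The astrocyte list had 7 of 18 genes higher, led by Gfap, the filament of reactive astrocytes, with means of 38041 ± 4692 and 31198 ± 4285, and by Vim at a log2 fold change of 0.38. Of the microglia list 1 gene was higher with the hemoglobin covariate. Over all genes, 1704 had an unadjusted p under 0.05 in that fit, against 3942 in the main fit. The part of the hemoglobin level in the values of the microglia list was not tested.

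No antigen presentation gene was called by edgeR. The counts stand beside 9.96% higher and 9.57% lower over all genes. Of 16 MHC class I genes 4 were higher, among them B2m, the invariant chain, at 0.27 and H2-M3 at 0.29. Without WTEE mouse 10 B2m was at 0.17 and H2-M3 at 0.24, and 4 genes of that list were higher. Of 9 class II genes 2 were higher, H2-Ab1 at 0.79 and H2-DMb1 at 0.40, and without WTEE mouse 10 none was higher. The 1 lower gene of that list was Ciita, with means of 82.5 ± 29.8 in EE and 114 ± 20.9 in SH. Of 21 interferon-stimulated genes 1 was higher and 1 lower. Of 24 genes of endothelium and vessel growth 2 were higher, Vwf at 0.44 and Pecam1 at 0.12. The 1 lower gene was Tjp1, with means of 4782 in EE and 5367 in SH.

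No gene of the neuronal signalling lists was called, by edgeR or by DESeq2. The counts again stand beside 9.96% higher and 9.57% lower over all genes. Of 22 glutamate receptor genes 0 were higher and 6 lower, with a median of -0.11, among them Grm7 at -0.15, Grin3a at -0.15 and Grik2 at -0.17. With the trend on length removed 2 were lower. Of 18 genes of CREB and MSK signalling 1 was higher and 6 lower, with a median of -0.10. Mapk14, the p38 kinase that activates MSK1, had means of 4757 ± 180 in EE and 5188 ± 216 in SH. Creb1 had means of 2259 ± 144 and 2457 ± 151. Crtc2, a coactivator of CREB, was at -0.11 and Rps6ka3 (RSK2) at -0.14. With the trend on length removed 3 of the 18 were lower. The count over all genes in that fit is not given here. Bdnf, given here because the pathway begins with it and not by the naming rule, had means of 1703 ± 217 and 1626 ± 104 and an adjusted p of 0.541. Of 21 GABA and interneuron genes 4 were higher and 0 lower, led by Pvalb, the calcium buffer of fast-spiking interneurons, with means of 1993 ± 533 and 1542 ± 164, and followed by Npy at 0.28, Gabrd at 0.18 and Sst at 0.21. Without WTEE mouse 10 the log2 fold changes of Pvalb, Npy, Gabrd and Sst were 0.26, 0.24, 0.13 and 0.15, and 5 genes of the list were higher.

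Among activity-induced and clock genes edgeR called none and DESeq2 called Homer1 and Per2. The counts here too stand beside 9.96% higher and 9.57% lower over all genes. Of 26 immediate early genes 2 were higher and 4 lower, with a median of -0.10. Without WTEE mouse 10, 0 of them were higher and 5 lower. Homer1, a scaffold of the postsynaptic density with an activity-induced short form, ran from 4115 to 6943 normalised counts in SH and from 3073 to 4551 in EE. The medians were 4485 and 3829, the log2 fold change was -0.39 (SE 0.093) and the adjusted p 0.152, and 10 of 12 EE mice stood below every SH mouse. Nr4a3, Fosl2 and Fosb, all transcription factors, were at -0.29, -0.28 and -0.32. Of 21 circadian clock genes 0 were higher and 6 lower. Per2, a repressor of the clock, had a lowest value of 1514, a median of 1969 and a highest of 2833 in SH. In EE these were 957, 1505 and 1964, a log2 fold change of -0.50 (SE 0.116) with an adjusted p of 0.152. The effect on Per2 was -0.51 in WT and -0.49 in MSK1 KD. Per3 was at -0.26, Bhlhe40 at -0.14 and Csnk1d at -0.095. The hour at which each mouse was killed was not given in the labels.

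**Figure D5:**
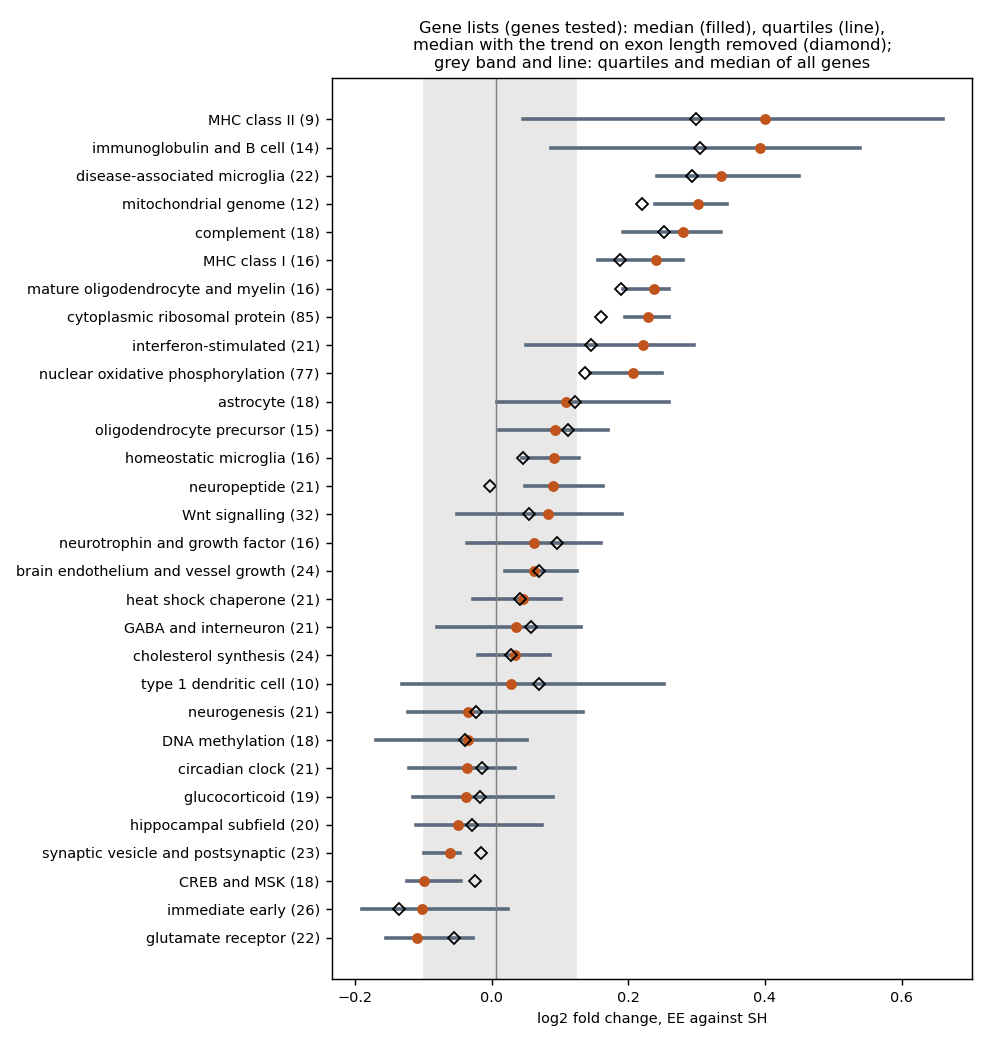
Median (filled point) and quartiles (line) of the log2 fold change of EE against SH in each gene list, with the number of genes tested, beside the quartiles and median of all genes (grey band and line), and the median after each library's trend on exon length was removed (diamond). The lists reach from -0.11 for glutamate receptors to 0.40 for MHC class II, and removing the trend moved the ribosomal median from 0.23 to 0.16.

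Genes of tissue next to the hippocampus were compared as a check on dissection. Their counts stand beside 9.96% higher and 9.57% lower over all genes. All 15 choroid plexus genes were tested and 3 were higher at an unadjusted p under 0.05, and 0 without WTEE mouse 10. The median of these genes was 2.16, with 0.51 in WT and 3.90 in MSK1 KD. Their summed level ran from 34.1 to 4627 CPM in SH and from 54.9 to 10206 in EE, and the medians were 55.3 and 114. Levels over 1000 were found in 4 of 12 EE libraries (2 WTEE and 2 KDEE) and in 1 of 9 SH libraries (WTSH mouse 19), and every other library was at 132 or below. The exact permutation p was 0.126, with an adjusted p of 0.233 over 12 measures of the libraries. Kcnj13, a potassium channel of the plexus, had medians of 10.4 in EE and 8.57 in SH and highest values of 739 and 238. Of 9 ependyma genes, 6 were higher, and 2 without WTEE mouse 10, with a summed level of 36.6 to 93.7 in EE and 28.5 to 76.4 in SH. The summed hippocampal markers ran from 1941 to 2480 in EE and from 2151 to 2789 in SH. The exact permutation p for these markers was 0.0529 and the adjusted p 0.159. The part of dissection in the results above was not tested. The meninges list had 1 of 13 genes higher, the thalamus list 0 of 10, the striatum list 2 of 10 and the pituitary list 0 of 5, and none was lower. The summed pituitary level was 249 CPM in KDSH mouse 8 and at most 28.4 in any other library. Its medians were 2.81 in SH and 3.23 in EE. Without WTEE mouse 10 the meninges list had 0 higher, and the striatum list 1 higher and 1 lower.

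The remaining lists are given by their counts, beside the 9.96% higher and 9.57% lower over all genes. Counts at an unadjusted p under 0.05 were 4 higher and 1 lower of 15 oligodendrocyte precursor genes, 3 and 1 of 16 neurotrophin and growth factor genes, 2 and 3 of 21 neurogenesis genes and 1 and 2 of 23 synaptic genes. They were 2 and 2 of 20 subfield genes, 2 and 1 of 19 glucocorticoid genes, 2 and 2 of 21 chaperones and 1 and 0 of 24 cholesterol synthesis genes. They were 4 and 3 of 32 Wnt genes, 2 and 0 of 21 neuropeptide genes, 3 and 3 of 18 DNA methylation genes and 2 and 1 of 10 genes of type 1 dendritic cells. Of the subfield genes Bok was higher at 0.34. Fibcd1 and Iyd were lower, with means of 7483 and 108 in EE and of 8788 and 132 in SH. Of the dendritic cell genes Id2 was higher at 0.30, and Zbtb46 was lower, with means of 443 in EE and 496 in SH. No gene of these lists was called by edgeR, and DESeq2 called Batf3 of the dendritic cell list and Gadd45a of the DNA methylation list.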

How the data were processed

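Hippocampal poly(A) RNA was sequenced as paired-end reads, 1 library per mouse. The authors checked reads with FastQC 0.11.3, trimmed adapters with Skewer, and used STAR 2.5 for alignment to GRCm38 and HTSeq 0.6.1p1 for counting unique alignments per gene without strand. The deposited values are raw counts per gene symbol. Rows that name no gene were left out: read pairs outside genes made up 8.41% to 15.7% of each library compared, and ambiguous pairs 4.14% to 6.57%. The libraries were grouped by their labels, and WTSH mice 4 and 7 and KDSH mouse 6 were left out as in the study. No pair of libraries agreed within sampling noise. Of the symbols, 95.1% matched 1 gene of GENCODE M21.

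In R 4.3.3, edgeR 4.0.16 gave a quasi-likelihood test per gene (TMM, default filter, terms for genotype and housing), with adjustment over all 20187 genes. Effects within genotypes and their difference came from a model of the 4 group means. DESeq2 1.42.0, used by the study, was an alternative. Single values were compared by exact two-sided permutation within genotypes. Log2 CPM used a prior count of 2. The fit was tested on simulated data. Genes named are those called, the next by p up to 20, up to 4 of each list by p, and genes the study names (some items are not reported here). Bdnf and the B cell genes Ms4a1 and Ighd were named after their values were seen. The comparison, its lists and tests were chosen with earlier results of these data known. Counts include PCR copies, and depth limits genes of few reads.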

Additional observations from a re-analysis of the deposited data

Results flagged for a closer look

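Within the 4 groups, the gap of the highest or lowest mouse to its neighbour was compared with Dixon's 95% critical value for 38 measures, 152 tests in all. Chance alone takes about 1 group in 20 past it, and 13 groups were past it. Several fell on 2 mice, WTSH 19 and KDEE 20. WTSH mouse 19 was lowest for Myo1h (92.3 normalised counts), highest for Spata32 (59.7) and highest for the summed ependyma level (76.4 CPM). KDEE mouse 20 was highest for Frem3 (138) and Ankrd10 (3366) and lowest for the mitochondrial share (3.72%). KDSH mouse 8 was highest for Homer1 (6943) and Gm16355 (26.1). WTEE mouse 10 was highest for Cd14 (275) and lowest for the summed hippocampal markers (1941). WTSH mouse 5 was highest for Ralgps2 (2596), KDEE mouse 9 was lowest for Cd14 (156), and KDEE mouse 22 had the lowest depth (27410239 counts). No value of Ighm was past it. No gene had an adjusted p under 0.05 for a difference between the effects of housing in WT and MSK1 KD mice in edgeR, where 659 had an unadjusted p under 0.05, and DESeq2 called 20.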

How the results depend on the processing

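The single call was kept under other size factors, both other filters, no fold threshold, the robust fit, the 4 group means, structural RNA share, choroid level, PC1, PC2, share outside genes and removal of the length trend. The number of genes called between enriched and standard housing was 71 with DESeq2 at both of its filtering levels, 267 with DESeq2 on all 24 libraries, 27 with the likelihood ratio test, 21 on all 24 libraries, 2 without the genotype term and 0 with the hemoglobin covariate, where 1704 genes had an unadjusted p under 0.05. It was 0 in WT mice alone, where 561 had one, and 1 in MSK1 KD mice alone, which was lower in EE. Leaving out 1 library gave 1 to 21 calls, the highest without WTEE mouse 21, with 4 without WTEE mouse 10 and 2 without KDSH mouse 18, KDEE mouse 20 or WTSH mouse 19. On all 24 libraries the count ran from 1 to 411 with 1 more left out.

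In WT mice the count was 1 on all 24 libraries, 2 with the likelihood ratio test, 2 with DESeq2 and 6 with DESeq2 on 24, and 0 to 1 with a library left out. In MSK1 KD mice it was 1 with the likelihood ratio test, 12 and 14 with DESeq2 at its filtering levels of 0.05 and 0.1, and 19 on 24 libraries. For the difference it was 35 with the likelihood ratio test, 20 with DESeq2 at both levels and 2 on 24 libraries. On all 24 libraries the log2 difference of the summed red blood cell list was 0.32 (adjusted p 0.043), past the threshold, against 0.31 (0.0758) on 21, and those of the structural RNA share (-0.57) and the striatum list (-0.025) turned sign. Values of single genes that turned sign were Kcnj13 with the choroid (-0.034) and PC1 (-0.39) covariates, Hba-a1 (-0.013) and Hba-a2 (-0.0039) with the hemoglobin covariate and Rps6ka5 (0.030) without the length trend. The causes were not tested. The hemoglobin, share outside genes, length, DESeq2 on 24 and repeated 24-library alternatives were chosen after seeing the data. No paired analysis was possible because no mouse number occurs in more than 1 group.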
